A study of Homo sapiens with 17 samples.

Results

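The clustered protocadherins are 53 of the 20056 protein-coding genes in the RefSeq table for GRCh38.p14. They were chosen by their symbols, which begin with PCDHA (15 genes), PCDHB (16 genes) or PCDHG (22 genes), and by their place on chromosome 5. The PCDHA genes span chr5:140786140-141012347, the PCDHB genes chr5:141051374-141249365 and the PCDHG genes chr5:141330514-141512975, and all are on the plus strand. The locus examined reached 50 kb beyond them on either side and was 827 kb long. The study used CUT&Tag, where a transposase is tethered through an antibody and cuts the DNA nearby, in the established human pluripotent line H1. Cells received virus carrying 1 of 2 shRNAs against HNRNPU, a nuclear RNA-binding protein (shHNRNPU#1 or shHNRNPU#2), or a control shRNA against luciferase (shLUC), and were selected with puromycin. There were 2 repeats of each shRNA for H3K4me1, a histone mark of enhancers, and for H3K27ac, a mark of active enhancers and promoters. Untransfected cells gave 2 libraries for HNRNPU itself. POLIIS2P, a name that reads as RNA polymerase II phosphorylated on serine 2, was profiled in 1 library with shHNRNPU#1 and 2 with shLUC. These assays do not measure HNRNPU RNA, so how far it was depleted is not known here. The antibodies listed in the labels' protocol include HNRNPU and H3K27ac but neither H3K4me1 nor POLIIS2P.

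Clustered protocadherins are cell adhesion proteins that neurons use to tell themselves from their neighbours. In the PCDHA and PCDHG clusters each large first exon has its own promoter and is spliced to constant exons shared by the whole cluster, whereas each PCDHB gene stands alone. CTCF and cohesin bind at many of these promoters and at distant enhancers, and the C-type genes PCDHAC1, PCDHAC2, PCDHGC3, PCDHGC4 and PCDHGC5 are known to be used differently from the other members. In the gene table all PCDHA genes ended at base 141012347 and all PCDHG genes at base 141512975, so a summit far past a start belongs to the bodies of several members at once.

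The promoters are shown first because members with and without a summit at the start share the letters CGCT. Most promoters of the clusters are known to hold a conserved sequence element with the letters CGCT at its core. A match to these letters alone need not be that element. RefSeq promoter windows, 250 bases before to 50 after the start, were found for 47 of the 53 members. CGCT lay on the gene's own strand within the 100 bases before the start in 44 of these 47 and in 28.1% of the 27326 promoters of the table. This narrower search was chosen after the matches were seen. Over the whole window and both strands, CGCT was in 46 of 47 members and 69.4% of all promoters. The core of the CTCF motif was in 1 member and 2.48% of all promoters, a longer element that contains CGCT and can overlap that core in 2 members and 2.40%, and TATAAA in 6 members and 11.9%. The sequences below are the 100 bases before the start, 5′ to 3′ on the plus strand (RefSeq, GRCh38.p14), with CGCT in capitals. PCDHAC1 had a start summit in every list and PCDHGA6 in none. PCDHAC2, PCDHB14 and PCDHGB1 had percentiles without overlap between shHNRNPU and shLUC in comparisons below. PCDHA8 differed only for POLIIS2P, with 1 shHNRNPU library. No test was run on these single members. PCDHB5 and PCDHGB6 carried HNRNPU sites.
PCDHA8: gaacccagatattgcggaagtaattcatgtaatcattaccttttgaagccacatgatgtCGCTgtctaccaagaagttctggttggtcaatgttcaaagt
PCDHAC1: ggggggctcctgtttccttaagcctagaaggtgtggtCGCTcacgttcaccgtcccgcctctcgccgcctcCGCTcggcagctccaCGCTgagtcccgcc
PCDHAC2: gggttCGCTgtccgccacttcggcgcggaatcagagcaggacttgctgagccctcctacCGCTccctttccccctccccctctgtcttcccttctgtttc
PCDHB5: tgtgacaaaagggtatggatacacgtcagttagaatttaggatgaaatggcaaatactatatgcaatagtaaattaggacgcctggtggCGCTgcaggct
PCDHB14: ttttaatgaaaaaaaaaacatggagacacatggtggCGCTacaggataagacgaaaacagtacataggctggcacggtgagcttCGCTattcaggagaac
PCDHGB1: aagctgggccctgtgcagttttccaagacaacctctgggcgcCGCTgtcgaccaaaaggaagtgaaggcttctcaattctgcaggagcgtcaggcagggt
PCDHGB6: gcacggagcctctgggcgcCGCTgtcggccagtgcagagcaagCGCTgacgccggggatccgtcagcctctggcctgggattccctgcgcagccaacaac
PCDHGA6: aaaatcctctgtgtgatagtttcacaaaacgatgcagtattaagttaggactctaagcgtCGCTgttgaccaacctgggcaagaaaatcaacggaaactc

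The windows are chr5:140841087-140841186 for PCDHA8, chr5:140926199-140926298 for PCDHAC1, chr5:140966376-140966475 for PCDHAC2, chr5:141135106-141135205 for PCDHB5, chr5:141223243-141223342 for PCDHB14, chr5:141349999-141350098 for PCDHGB1, chr5:141407921-141408020 for PCDHGB6, chr5:141373791-141373890 for PCDHGA6. The last CGCT began 14 bases before the start of PCDHAC1, 41 before those of PCDHA8 and PCDHAC2, and 11 before that of PCDHB5. PCDHGA6, which had no start summit, held it 40 bases before the start. The promoters were otherwise unlike in base composition. The median window had 7 CpG dinucleotides in PCDHA, 7.5 in PCDHB and 7 in PCDHG, against 14 over all promoters. PCDHAC1 had 27 and was 66.0% G+C, PCDHAC2 had 15, PCDHGC3 18 and PCDHGC4 23. Within PCDHG, B-type windows had a median of 11 CpG and A-type windows 5. Split after the values were seen, the median was 13 CpG in the 7 members with a start summit in 9 or more lists, 8 in the 25 with one in 1 to 8 lists and 5 in the 15 with none.

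Each of the 17 libraries came with a list of summits, the base of highest signal in each called peak, and its score. A percentile below is the position of a summit's score within its own list, and 0 means no summit. Read depth is unknown. The lists held 34649 to 214333 summits, so longer lists find more summits anywhere, and counts were also made among the 20000 strongest summits of each list. For the 4 histone libraries of shLUC cells, the sample titles and the names inside the files give opposite antibodies, and the labels do not settle which is right. The share of all genes with 1 of the 20000 strongest summits within 1 kb of the start was compared. In shHNRNPU cells it was 5.69% to 6.45% for H3K4me1 and 22.7% to 26.9% for H3K27ac. It was 26.0% and 29.4% in the libraries titled H3K4me1 shLUC, and 5.45% and 5.00% in those titled H3K27ac shLUC. By this measure each shLUC list was closer to the other mark, so differences by title may set unlike antibodies against each other. Libraries are named by title here, and each comparison of a single mark is given by title and again with the names of the 4 histone shLUC libraries exchanged. The labels do not say whether repeats were separate cultures, so p-values concern these libraries only, and the spread between them may be technical. The tests treated each library as a separate unit, although repeats of the same shRNA were among them. Of the pluripotency markers, 4 of 10 had a start in the tables used. NANOG had an H3K4me1 summit at percentiles 83.6 to 93.5 in the 4 shHNRNPU libraries. There SOX2 stood at 0, 0, 23.2 and 53.9 and DPPA4 at 21.4, 0, 56.8 and 55.8, while LIN28B had no start summit in any list. The 5 neuron markers with a start each had a summit in at least 7 lists. H3K27ac in shHNRNPU cells was lacking at NANOG, DPPA4 and LIN28B, and also at the neuron markers NEUROD1, MAP2 and SYN1. It was found at SOX2 (64.0, 0, 0 and 33.4), and in 1 library each at TUBB3 (11.2) and RBFOX3 (42.8). Start summits of these marks thus do not separate the cell types here.

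The locus was rich in summits of nearly every kind. POLIIS2P summits lay at 98.0 per Mb in shHNRNPU cells and at 111 and 98.0 per Mb in shLUC cells, against 21.7 to 24.5 per Mb over chromosome 5. HNRNPU summits lay at 35.1 and 27.8 per Mb against 10.6 and 9.92. H3K27ac summits of shHNRNPU cells lay at 36.3 to 70.1 per Mb against 11.2 to 24.8, and H3K4me1 summits at 72.6 to 105 per Mb against 43.9 to 65.5. The libraries titled H3K4me1 shLUC had 50.8 and 65.3 per Mb against 18.8 and 26.0. Those titled H3K27ac shLUC had 62.9 and 65.3 per Mb against 54.8 and 55.1, the smallest excess of the 17 libraries. The map of summits along the locus shows them in the clusters and near their ends, with few between PCDHB and PCDHG.

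**Figure D1:**
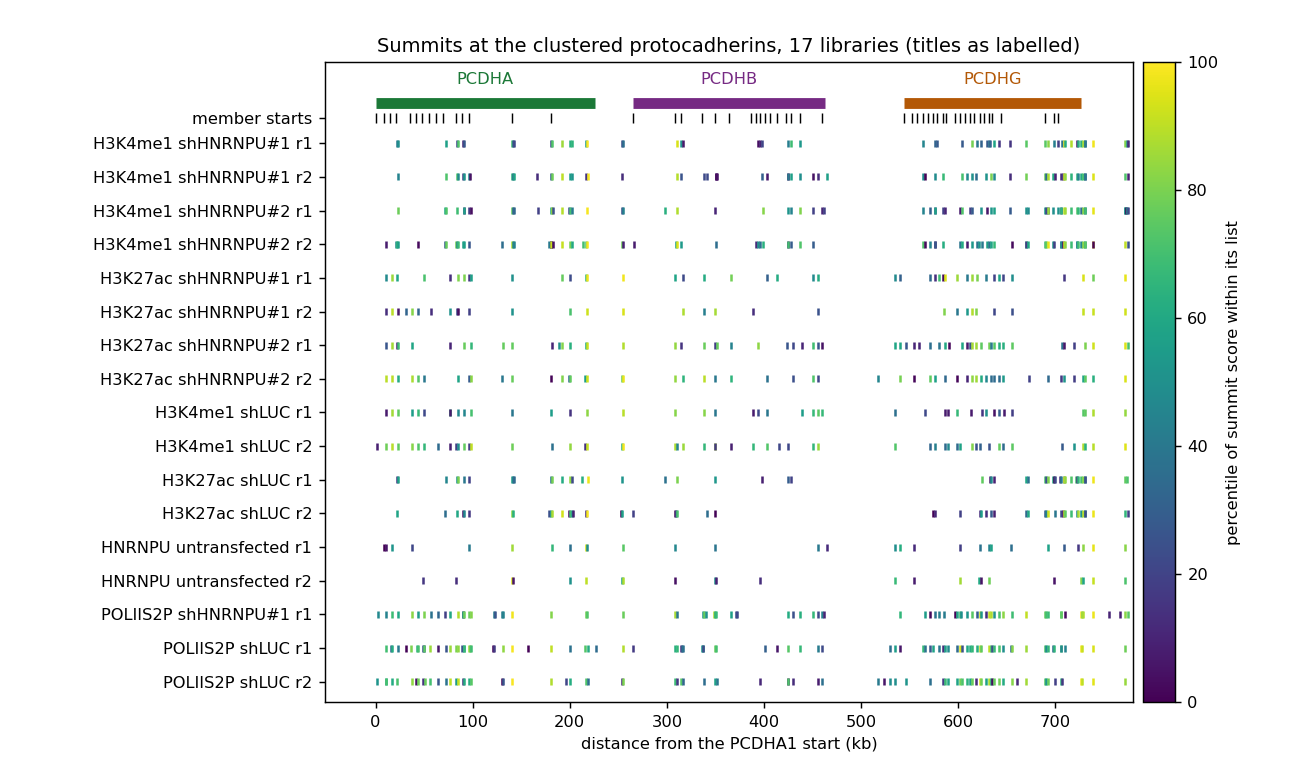
Summits of the 17 libraries (rows, named by title) by distance in kb from the PCDHA1 start, coloured by percentile within the list, with the 53 member starts and the spans of the 3 clusters above. Columns of marks shared by all rows stand at the PCDHAC1 start and at 2 places past the end of PCDHG.

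Chaining summits within 250 bp gave 192 positions, of which 3 were found in all 17 lists and 51 in 1 list. The first was at the start of PCDHAC1 (chr5:140926426-140926678). The others were past the end of the PCDHG genes, at chr5:141524869-141525066 and chr5:141557727-141558106, within the body of DIAPH1, a formin that builds actin filaments. At the position near 141524996 the lowest percentile was 63.3 and the highest 98.7. Near the shared end of PCDHA, the position at chr5:141004362-141004459 was in 16 lists and absent from the second HNRNPU library. It stood at percentiles 98.4 to 99.1 for H3K4me1 and 91.9 to 97.4 for H3K27ac in shHNRNPU cells, and at 35.7 to 72.8 for POLIIS2P. Between PCDHA and PCDHB, the position at chr5:141040981-141041339 was in 14 lists. It ranked high for H3K27ac in shHNRNPU cells (88.5 to 97.7) and in the libraries titled H3K4me1 shLUC (89.3 and 98.4), and was lacking in both libraries titled H3K27ac shLUC.

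Start summits were scarce among the members. A summit within 1 kb of the start was counted for 3 to 19 of 53 members in the 12 histone lists, which is 5.66% to 35.8%, where 32.0% to 66.5% of all 15848 protein-coding genes with a start had one. In the HNRNPU lists 8 and 10 members had one (15.1% and 18.9%, against 54.9% and 54.4% of all genes). Only POLIIS2P in shLUC cells came near the level of other genes, with 27 and 21 members (50.9% and 39.6%, against 58.8% and 56.9%). Over the 17 lists, 18 members (34.0%) never had a start summit, against 17.8% of all genes, and the median member had one in 2 lists and the median gene in 9. These shares are descriptions, and whether near-identical members lower the number of uniquely placed reads was not tested.

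**Figure D2:**
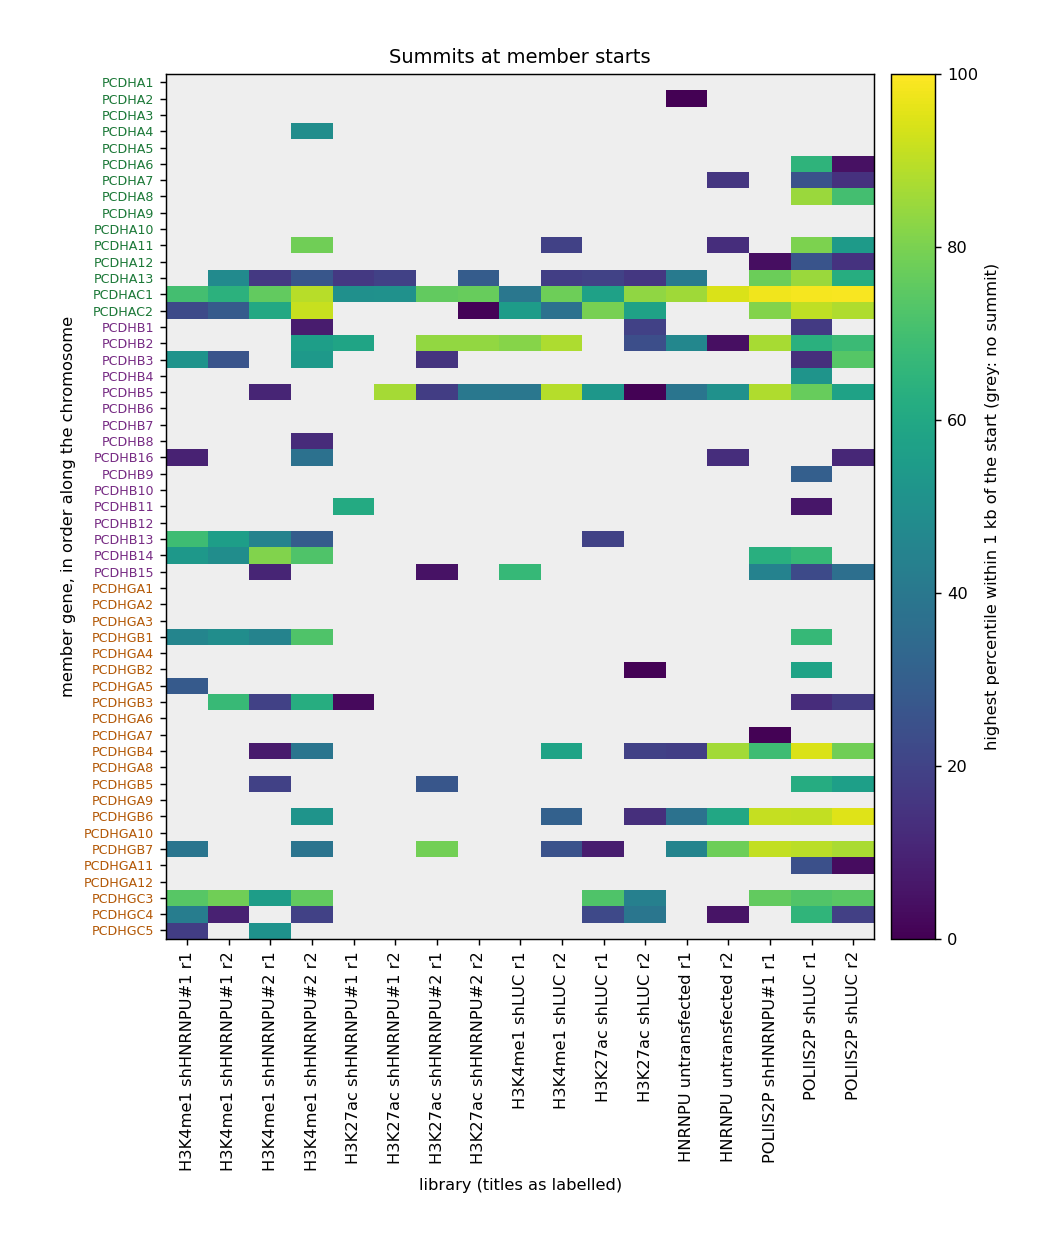
Highest percentile of a summit within 1 kb of each member's start (rows, along the chromosome) in each library (columns, by title), with grey for no summit. PCDHAC1 is coloured in all 17 columns, while most PCDHGA rows are grey throughout.

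PCDHAC1 was the one member with a start summit in all 17 lists. Its percentiles were 64.2 to 89.3 for H3K4me1 and 50.2 to 76.7 for H3K27ac in shHNRNPU cells, 85.8 and 94.5 for HNRNPU, and 97.9, 98.5 and 99.1 for POLIIS2P. PCDHA13 and PCDHB5 followed with 13 lists each, and PCDHAC2 and PCDHB2 with 12. PCDHB5 ranked at 88.2, 76.6 and 57.5 for POLIIS2P and had an H3K4me1 summit in only 1 of 4 shHNRNPU libraries. PCDHGC3 had H3K4me1 summits at 55.5 to 78.2 in shHNRNPU cells, no H3K27ac summit there, and POLIIS2P at 76.0, 73.0 and 74.5. The remaining C-type genes were weaker, with PCDHGC4 in 8 lists and PCDHGC5 in 2. PCDHB1, which lies apart from the other PCDHB genes, was in 3 lists and no higher than 19.2. Within PCDHG the types differed. All 7 B-type members had a start summit in some list, led by PCDHGB7 (10 lists), PCDHGB4 (9) and PCDHGB6 (8), but 9 of the 12 A-type members had none in any list.

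In most lists, more members had a summit in a window about 2 kb inside the gene than within 1 kb of the start. The exceptions were both HNRNPU lists and the second library titled H3K27ac shLUC. This window, 1.5 to 2.5 kb past the start, was chosen after the positions were seen. It held a summit for 16 to 29 of 53 members in the 4 H3K27ac libraries of shHNRNPU cells (30.2% to 54.7%), where 1.58% to 3.22% of all genes had one. In the libraries titled H3K4me1 shLUC it did for 23 and 27 members (43.4% and 50.9%), against 2.37% and 3.75% of all genes. For H3K4me1 in shHNRNPU cells it did for 17 to 24 members against 11.1% to 16.2%, and in the libraries titled H3K27ac shLUC for 12 and 9 against 13.2% and 13.8%. POLIIS2P summits lay there in 36 members with shHNRNPU (67.9%) and in 30 and 32 with shLUC (56.6% and 60.4%). The share of all genes was 4.86% to 5.29%. HNRNPU summits did so in 5 and 3 members (9.43% and 5.66%), against 2.48% and 2.59% of all genes. The median distance was 2119 bases for H3K27ac, 2144 for H3K4me1 (both by title) and 2076 for POLIIS2P, and the middle 50% of the 353 such summits, the strongest per member and library, lay 1995 to 2233 bases past the start. The closest 2 member starts were 3374 bases apart, and none of the 353 lay within 1 kb of another member's start.

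**Figure D3:**
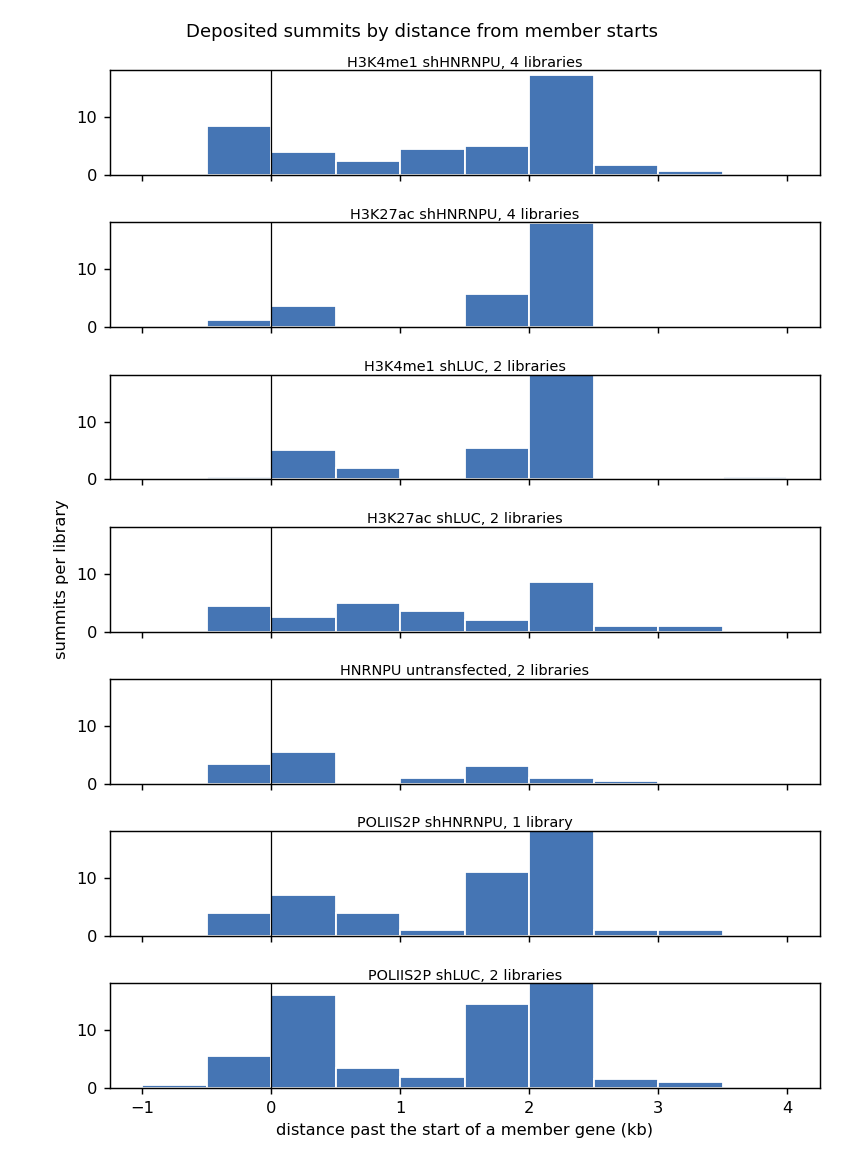
Deposited summits per library by distance past a member start in kb (bins of 500 bases), by antibody and condition as titled. In the H3K27ac and POLIIS2P panels of shHNRNPU cells the tallest bar stands 2 to 2.5 kb past the start, while for HNRNPU the tallest is in the first 0.5 kb.

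**Figure D4:**
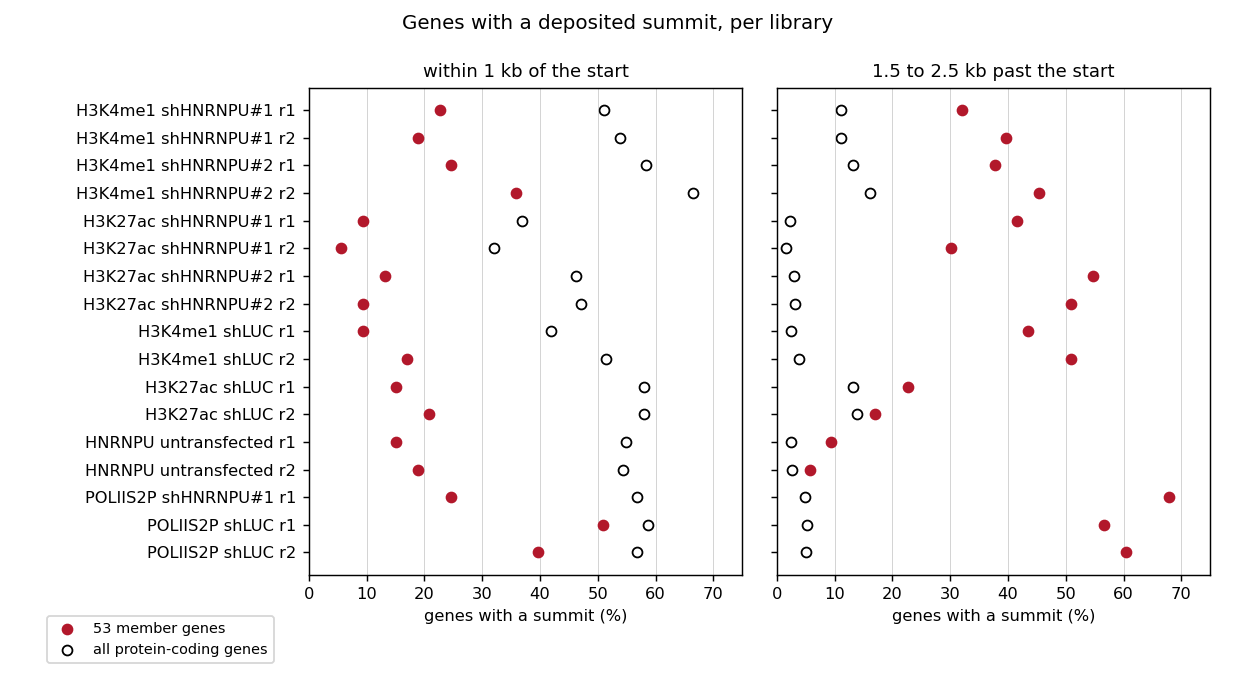
Percentage of the 53 members (red) and of all protein-coding genes (open circles) with a deposited summit within 1 kb of the start (left) or 1.5 to 2.5 kb past it (right), for each library by title. The members lie below all genes at the start in every library and above them in the downstream window in every library.

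The downstream summit was found in at least 1 list for 50 of 53 members, the exceptions being PCDHB1, PCDHB10 and PCDHGC4, and in 9 or more lists for 21. PCDHA4 had it in 15 lists, PCDHGA11 in 14 and PCDHA12 and PCDHGB5 in 13. The one past PCDHGB5 (chr5:141399619-141400005) had percentiles 83.3 to 88.6 for H3K27ac and 28.3 to 79.0 for H3K4me1 in shHNRNPU cells. In shLUC cells it stood at 7.30 and 81.2 in the libraries titled H3K4me1 and was lacking in both titled H3K27ac and in both HNRNPU libraries. The A-type PCDHG members, which mostly lacked a start summit, had the downstream one in 4 to 10 of 12 for H3K27ac in shHNRNPU cells. It was not limited to protein-coding members. The pseudogene PCDHGB9P had it in 9 lists and PCDHA14 in 6, at medians of 1737 and 1822 bases. Members with start summits in many lists varied in the downstream one. PCDHGB7 had it in 11 lists and PCDHA13 and PCDHB2 in 10, but PCDHAC1 in 5, PCDHGC3 in 2 and PCDHAC2 in 1. For PCDHGC3 a position 2538 bases past the start, just outside the window, was in 11 lists.

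To find where HNRNPU lay, summits of the first library with one of the second within 250 bp were taken as HNRNPU sites. Of 17226 sites, 12 were in the locus, a density of 14.5 per Mb against 4.70 over chromosome 5. Only 6 members (PCDHAC1, PCDHB2, PCDHB5, PCDHGB4, PCDHGB6 and PCDHGB7) had one within 1 kb of the start, which is 11.3% against 41.9% of all genes. At PCDHGB7 the percentiles were 45.1 and 78.0 for HNRNPU and 90.7, 89.7 and 87.2 for POLIIS2P. The repeats ranked some of these sites very differently, with HNRNPU at 46.2 and 4.10 at PCDHB2 and at 18.6 and 86.1 at PCDHGB4. The strongest sites were at PCDHAC1, near the end of PCDHA (93.8 and 90.2) and past PCDHG in DIAPH1 (95.8 and 91.1). A POLIIS2P summit lay within 500 bp of 8 of the 12 sites in all 3 libraries and was lacking at 1 site in all 3. No share over all 17226 sites is given for this count, so it says nothing about the locus in particular. The single pooled list of HNRNPU intervals from the authors put 11 members within reach, against 60.2% of all genes.

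To ask whether HNRNPU knockdown changed the marks at the locus, summits among the 20000 strongest were counted. H3K4me1 lists of shHNRNPU cells had 5, 6, 4 and 7 in the locus and H3K27ac lists 17, 14, 20 and 15. The libraries titled H3K4me1 shLUC had 12 and 14, and those titled H3K27ac shLUC 3 and 5. By title, H3K4me1 thus had a mean 7.5 lower in shHNRNPU cells and H3K27ac a mean 12.5 higher, each without overlap and each at the smallest p the 15 assignments allow (two-sided exact permutation p = 0.0667). After the exchange H3K4me1 was higher by a mean of 1.5 (exact permutation p = 0.400), and H3K27ac was higher by a mean of 3.5 (exact permutation p = 0.200). With both marks joined, which needs no choice of name, shHNRNPU pairs had 20 to 24 and shLUC pairs 15 and 19 (a mean difference of 5, exact permutation p = 0.0667). No comparison of this design can pass 0.05. Over all deposited summits per 20000, exchanged H3K4me1 was 8.12 to 8.94 with shHNRNPU and 5.81 and 5.96 with shLUC. For POLIIS2P the counts were 25 in the single shHNRNPU library and 19 and 21 in shLUC cells, with no test.

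Single members were then compared, calling a difference where the percentiles at the start did not overlap between the 4 shHNRNPU and 2 shLUC libraries. For calls without overlap, here and below, a share of all genes is over those with a summit in at least 1 of the libraries compared. There were 11719 such genes for H3K4me1 with names exchanged. With the names exchanged, H3K4me1 was higher in shHNRNPU cells at 3 of the 25 members with a summit (5.05% of all genes) and lower at none (5.09%). PCDHB14 had 53.5, 49.2, 81.0 and 72.3 in shHNRNPU cells and PCDHGB1 had 45.4, 49.2, 44.7 and 72.3. Neither had a histone summit in any of the 4 shLUC libraries, so both calls hold under either naming. PCDHB13 had 68.8, 56.2, 44.7 and 28.9 against 19.8 and 0. No H3K27ac summit lay at any of these 3 starts in shHNRNPU cells. For H3K27ac, 1 of 14 members was lower (11.8% of all genes) and 0 were higher (0.752%), so the share lower was near or under that of other genes. The gene was PCDHAC2, with 0, 0, 0 and 0.955 in shHNRNPU cells against 55.1 and 37.1, and 79.5 and 57.8 in the libraries titled H3K27ac. This call did not hold within 500 bp of the start. POLIIS2P at PCDHAC2 was 81.3 with shHNRNPU and 90.5 and 88.0 with shLUC.

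By title, H3K4me1 was higher at 4 of 24 members (21.6% of all genes) and lower at 2 (31.7%), and H3K27ac was higher at 0 of 18 (21.4%) and lower at 3 (28.9%). The lower ones were PCDHB2 and PCDHB5 for H3K4me1 and PCDHAC2, PCDHGC3 and PCDHGC4 for H3K27ac. With both marks joined, 5 of 26 members were higher (2.90% of all genes), namely PCDHB3, PCDHB13, PCDHB14, PCDHGB1 and PCDHGB3, and 2 were lower (7.93%), PCDHAC2 and PCDHB5. The mean percentile over both marks at PCDHB3 was 7.43 to 27.1 in shHNRNPU cells and at PCDHGB3 1.30 to 33.7, and both were 0 in shLUC cells. Their lowest means came from a lone H3K27ac summit (14.9 at PCDHB3, 2.60 at PCDHGB3) where H3K4me1 had none. At PCDHB13, PCDHB14 and PCDHGB1 the shHNRNPU values rest on H3K4me1 alone, so the joined calls are not separate from those above. Counted in either direction, 6 members differed by title for H3K4me1 (53.2% of all genes) and 3 for H3K27ac (50.4%), 3 with exchanged names for H3K4me1 (10.1%) and 1 for H3K27ac (12.5%), and 7 with joined marks (10.8%). All but the last lay near or below the share of other genes.

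Other distances and the strongest summits alone were tried for the same calls. Within 500 bp, 7 and 2 members differed by title for H3K4me1 (47.5% of all genes) and H3K27ac (44.2%), 3 and 0 with exchanged names (9.35% and 12.5%), and 6 with joined marks (10.6%). Within 2000 bp, 10 and 5 differed by title (57.4% and 55%), 4 and 2 with exchanged names (11.1% and 12.5%), and 7 with joined marks (11.3%). Among the 20000 strongest summits, 1 and 0 differed by title (60.3% and 41.7%), 0 and 1 with exchanged names (7.82% and 12.2%), and 1 with joined marks (11.8%), but no more than 5 members had such a summit.

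The mean number of members with a start summit, over all deposited summits, differed most for POLIIS2P. Of the 53 members, 13 had one with shHNRNPU and 27 and 21 with shLUC, while the share over all genes was 56.8% against 58.8% and 56.9%. The following shares are over the 10363 genes with a start summit in at least 1 of the 3 libraries. Among the 29 members with one, 9 lacked it in shHNRNPU cells and had it in both shLUC libraries (4.83% of these genes), and 1, PCDHGA7, was the opposite (3.48%). PCDHA8 stood at 84.9 and 70.1 in shLUC cells and PCDHA11 at 80.4 and 54.6, with none in shHNRNPU cells. PCDHGB5 stood at 61.9 and 56.4 and PCDHB3 at 13.3 and 73.8. The other 5 were PCDHA6, PCDHA7, PCDHGB3, PCDHGA11 and PCDHGC4, with at least 1 percentile under 20 each. PCDHGB4 was lower, at 69.1 against 94.4 and 78.2, and PCDHB2 was higher, at 86.9 against 63.3 and 68.0. PCDHAC1 stood at 97.9 against 98.5 and 99.1, and PCDHGC3 at 76.0 against 73.0 and 74.5. Among the 20000 strongest summits the counts were 8 with shHNRNPU and 8 and 5 with shLUC. The shHNRNPU library was 1 sample with the shortest of the 3 lists (79949 summits against 87456 and 85517), and no test was run.

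**Figure D5:**
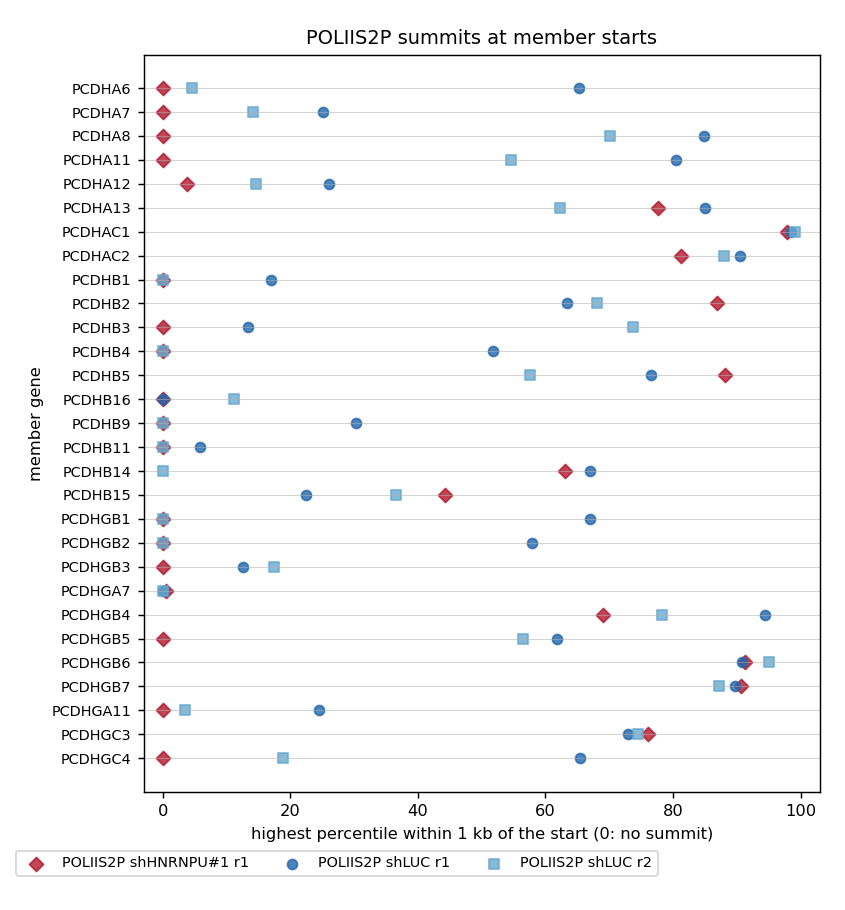
Highest POLIIS2P percentile within 1 kb of the start in the shHNRNPU#1 library (red diamonds) and both shLUC libraries (blue) for the 29 members with a summit in at least 1 of them. Red diamonds stand at 0 for PCDHA8, PCDHA11 and PCDHGB5, where both shLUC values exceed 50, and beside the blue points for PCDHAC1, PCDHGB6 and PCDHGC3.

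The other protein-coding genes touching the locus were SLC25A2, a mitochondrial ornithine carrier with no start in the tables used, TAF7, a subunit of the general transcription factor TFIID, and DIAPH1. TAF7, which lies between PCDHB and PCDHG, had a start summit in 8 lists, with HNRNPU at 49.0 and 67.3. Its POLIIS2P summit was lacking in shHNRNPU cells and stood at 55.3 and 49.1 in shLUC cells. DIAPH1 had one in 11 lists and POLIIS2P at 98.5, 97.8 and 98.1.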

How the data were processed

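H1 cells were profiled by CUT&Tag in 17 libraries. Per the labels the authors used cutadapt, Bowtie2, SAMtools, MACS2 and deepTools on hg38, with versions not given in the sources used here. The paper listed with the series describes other cells. The deposited lists give 1 summit per peak with a score that the authors' peak caller wrote as −log10 of a p or q value, starting at thresholds of 0.01 (histone marks) or 0.05 (HNRNPU and POLIIS2P). A further deposited list of HNRNPU intervals holds positions only. Each score was turned into its percentile within its list. Gene starts came from RefSeq GRCh38.p14 tables without exons, and 6 members without a promoter entry were read as plus strand. Members, lists and measures were chosen with earlier results of these data known. Differences used two-sided exact permutation tests over 15 assignments (Python 3.11.15, NumPy 2.4.6, pandas 2.3.3). The calls without overlap and the search for summits near a start were checked on simulated data, and the permutation test was not. Read depth is unknown, and list length limits the precision. Named genes were the 3 members per cluster with the highest mean percentile, the C-type genes and PCDHB1, up to 4 members per mark without overlap, the other genes of the locus, up to 3 per other list and, per stretch of the locus, the 2 positions found in most lists. Others named were chosen after their values were seen. Alternatives were distances of 500 and 2000 bp, the 10000 strongest or all summits, each shRNA alone, each library left out and a replicate block.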

Additional observations from a re-analysis of the deposited data

Results flagged for a closer look

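Groups of 4 libraries were examined for a value far from the others, 15 groups in all, and about 5% of such groups are picked out by chance. Among the 4 H3K4me1 libraries of shHNRNPU cells, the second repeat of shHNRNPU#2 had 1 member start with a summit among the 20000 strongest and the other 3 had 0. With 3 values tied at 0 any other count is picked out, so the rate by chance does not hold for it. In the same 4, the second repeat of shHNRNPU#1 had 8.94 locus summits per 20000 deposited and the others 8.12, 8.16 and 8.25.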

How the results depend on the processing

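Differences are shHNRNPU minus shLUC. Exchanging the names reversed the H3K4me1 difference in locus summits, from -7.5 to 1.5, and took that of H3K27ac from 12.5 to 3.5. Within each naming and for joined marks, differences in locus summits of the histone marks kept their direction under every alternative run. The number of member starts with a summit did not. By title, with all deposited summits in place of the 20000 strongest, the difference went from -1.25 to 6.5 for H3K4me1 and from 1.5 to -4.5 for H3K27ac, and with names exchanged from 0 to -2 for H3K27ac. With the 10000 strongest it was 0 for H3K4me1 under either naming and 0.25 for exchanged H3K27ac. Within 500 bp it was 0 for exchanged H3K4me1 and for joined marks, and within 2000 bp 1.75 for exchanged H3K27ac. The shHNRNPU#1 libraries alone gave 0 for exchanged H3K4me1 and -1 for exchanged H3K27ac and for joined marks (0.25 with both shRNAs), and shHNRNPU#2 alone 1 for exchanged H3K27ac. Leaving out 1 library gave 0 to 0.333 for exchanged H3K4me1, -0.5 to 0.5 for exchanged H3K27ac and -0.25 to 0.833 for joined marks. Counts of members without overlap were 10 by title for H3K4me1 within 2000 bp and 5 for H3K27ac (6 and 3 within 1 kb). With the 20000 strongest summits they were 1 and 0 by title, 0 for exchanged H3K4me1 and 1 for joined marks, where few members had a summit. Exchanged H3K27ac gave 0 within 500 bp and 2 within 2000 bp. Leaving out a library gave 3 to 6 for exchanged H3K4me1 (6 without the first library titled H3K27ac shLUC or the first of shHNRNPU#2), 3 to 8 for H3K27ac by title (8 without the first titled H3K27ac shLUC), 1 to 7 for exchanged H3K27ac (7 without the first titled H3K4me1 shLUC) and 7 to 11 for joined marks. No share over all genes is given for counts with a library left out, so they say nothing about the members in particular. Without 1 shLUC library a call has only 1 control value to clear. POLIIS2P locus summits differed by 5, by 2 with the 10000 strongest and by 0.272 per 20000 of all deposited, where leaving out a shLUC library gave -0.776 and 1.32 (chosen after seeing the data), so no direction is given. Its member starts differed by 1.5, and by -11 with all deposited summits. HNRNPU sites were at 6 member starts, at 2 with the 20000 strongest summits, at 11 in the pooled list, and at 8 and 10 with 1 library. The cause of these changes was not tested, other than that shorter lists hold fewer summits. Repeats share a number in the labels, which gives no pairing. With the replicate number as a block the smallest p is 0.111, and the locus difference for joined marks was again 5 (exact permutation p = 0.111) and that for exchanged H3K4me1 1.5 (exact permutation p = 0.222). The block changed no call.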

Other observations

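Genes that act on these clusters, from a list chosen with earlier results known, had more start summits than the members. Of 14 regulators, the 12 with a start in the tables each had one in at least 8 lists. Their median was 14 lists, against a median of 2 for the members and 9 for all genes. SETDB1, a histone H3 lysine 9 methyltransferase, and DNMT1, the maintenance DNA methyltransferase, had one in all 17 lists, and SMC3, a cohesin subunit, in 16. CTCF had one in 16 lists, with HNRNPU at 97.5 and 97.3.

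Of 10 protocadherins outside the clusters with a start, 9 had a start summit in some list, with a median of 5.5 lists, against a median of 2 for the members and 9 for all genes. PCDH1 was in all 17 lists, at 98.1 to 98.7 for H3K4me1 in shHNRNPU cells. PCDH9 was in 11 lists, with HNRNPU at 77.0 and 85.0 and no POLIIS2P summit. PCDH8 had H3K4me1 summits at 59.4 to 78.7 in shHNRNPU cells and summits in both libraries titled H3K27ac shLUC, but none for H3K27ac in shHNRNPU cells, HNRNPU or POLIIS2P.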
